A study of Mus musculus with 3 samples.

Results

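The type I interferon response module is a list of 34 mouse genes that interferon-alpha and interferon-beta induce. It was chosen by symbol, and 32 of the 34 symbols matched a row among the 32285 genes of the deposited matrices. Mx1 and Mx2 are not analysed here. The module was followed in single cells of the mouse aortic adventitia, the outer connective-tissue coat of the vessel. The coat was peeled from thoracic and abdominal aorta, digested with Liberase and elastase, and sequenced with the 10x Genomics 3' droplet assay. The study had 3 groups of 3 mice: saline (Vehicle), angiotensin II (AngII), and angiotensin II with voluntary wheel running (AngII + VWR). Each group is 1 library, 3 in all. How the 3 mice of a group were combined, and their strain, genotype, age, sex, dose and duration, are not given in the sources used here. With 1 library per group no difference could be tested, so every interval in this text covers counting error only and no p-value is given. A difference between 2 libraries compares those libraries, and treatment cannot be told apart from any other way in which they differ.

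Type I interferons bind a receptor made of Ifnar1 and Ifnar2. Signalling through its kinases Jak1 and Tyk2 leads to the complex ISGF3, which holds Stat2 and Irf9 and binds the interferon-stimulated response element in the promoters of induced genes. The products block viral RNA, viral entry and viral copying, and several of them are sensors or transcription factors of the same pathway. Tissue macrophages and fibroblasts hold a low level of many of these RNAs without infection. Interferon gamma acts through another receptor and induces an overlapping set of genes.

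The core of the response element, which reads GAAA, any 2 bases, GAAA, was searched on both strands of the RefSeq promoter windows (build GRCm38.p6), which run from 250 bases before to 50 bases after a gene's start. Of the 34 members 24 had a window there, and 13 of the 24 (54.2%) held the letters, against 3.99% of all 27025 genes with a window. Of the pathway genes outside the module that had a window, 33 of 89 (37.1%) held them. A match is a description of the letters and not a binding site. Among the members called lower in AngII + VWR than in AngII in both classes 5 of 9 with a window held them, and among the other members 8 of 15. The 4 stretches that follow are shown as examples from 3 roles of members that have the letters and were called lower in AngII + VWR macrophages. Each is 140 bases long, is written 5′ to 3′ on the strand of the gene, ends 21 bases before the RefSeq start, and has the matched letters in capitals. Overlapping matches form 1 run of capitals in Isg15.
Isg15, minus strand, chr4:156200839-156200978: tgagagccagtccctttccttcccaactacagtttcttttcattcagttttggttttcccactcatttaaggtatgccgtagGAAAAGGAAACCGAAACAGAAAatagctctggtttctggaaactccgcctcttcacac
Ifit1, plus strand, chr19:34640729-34640868: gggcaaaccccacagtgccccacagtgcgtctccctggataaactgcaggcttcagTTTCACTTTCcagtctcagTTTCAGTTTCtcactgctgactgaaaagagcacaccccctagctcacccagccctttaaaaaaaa
Ifit3, plus strand, chr19:34583369-34583508: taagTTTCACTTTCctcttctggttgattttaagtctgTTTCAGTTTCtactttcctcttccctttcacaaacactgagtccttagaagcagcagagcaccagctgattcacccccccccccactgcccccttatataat
Rsad2, minus strand, chr12:26456473-26456612: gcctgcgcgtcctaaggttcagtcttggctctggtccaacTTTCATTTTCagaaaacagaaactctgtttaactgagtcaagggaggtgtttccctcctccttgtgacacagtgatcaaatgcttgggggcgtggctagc
In Isg15 the windows held 3 matches, in Ifit1 and Ifit3 they held 2 each, and in Rsad2 1. The 13 members with a match were Bst2, Gbp2, Ifih1, Ifit1, Ifit3, Ifit3b, Ifitm3, Isg15, Oas1a, Oas3, Rsad2, Stat2 and Trim30a.

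The filtered cells numbered 12324 in Vehicle, 9115 in AngII and 16125 in AngII + VWR. The AngII + VWR library was shallower, with a median of 4472 unique molecular identifiers (UMIs) per kept cell against 9430.5 in Vehicle and 13154 in AngII, and it was made with Cell Ranger 7.1.0 where the others carry 7.0.1. Pairs of libraries shared 44 to 80 cell barcodes. Cells were put in classes by the share of their UMIs from fixed genes: fibroblasts by Col1a1, Col1a2, Dcn and Lum, and macrophages by C1qa, C1qb and C1qc. Fibroblasts numbered 6542, 6078 and 10909 and macrophages 2534, 1997 and 3218, in the order Vehicle, AngII, AngII + VWR, which is kept for all triplets of values in this text. All 8 fibroblast markers and all 8 macrophage markers that the class rules did not use were above 5 UMIs per 1000000 (CPM) in their own class in every library. The macrophage rule genes summed to 93.1, 74.4 and 228 CPM in fibroblasts, and the fibroblast rule genes to 427, 462 and 1209 CPM in macrophages. A level here is the UMIs of a gene summed over the cells of a class, per 1000000 UMIs of that class. It is a count of 3' ends and is not divided by gene length.

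The summed level of the module was lower in the AngII library than in the Vehicle library, and lower again in AngII + VWR. This held for fibroblasts and for macrophages taken as whole classes. Among fibroblasts with few progenitor genes, described further on, the AngII sum was 1.01-fold that of Vehicle, against 0.88-fold over all fibroblasts. Ifi27l2a alone went from 349 CPM in Vehicle fibroblasts to 197 CPM in AngII fibroblasts. In fibroblasts the Vehicle library held 2464 CPM for the 32 members together (95% Poisson interval 2453 to 2476). The AngII library held 2169 CPM (2159 to 2179), and the AngII + VWR library 1702 CPM (1691 to 1712). In macrophages the 3 sums were 4549 CPM (4526 to 4572), 3481 CPM (3460 to 3502) and 2703 CPM (2678 to 2727). Most of this sum came from a few genes: Ifitm3 alone held 51.6% to 60.2% of the module UMIs in fibroblasts and 29.5% to 34.5% in macrophages. Without Ifitm3, Ifi27l2a, Bst2 and Ifi204 the other members summed to 622, 527 and 319 CPM in fibroblasts and to 1229, 1022 and 666 CPM in macrophages, in the same order of libraries. In bulk sums of this kind fewer expressing cells and less RNA per cell cannot be told apart, and the values per cell are given further on. The erythroid marker list was also highest in the Vehicle library: its 5 genes summed to 1498, 580.4 and 179.8 CPM in fibroblasts and to 1534, 58.9 and 336 CPM in macrophages, and their part in the result was not tested.

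Between AngII and Vehicle fewer members were called than between AngII + VWR and AngII, where many were lower and none was higher. A member was called when its log2 ratio of CPM + 1, after subtraction of the median over all measured genes of that class and comparison, was at least 1.5-fold from 0. A gene was measured with at least 5 CPM in either library and at least 10 UMIs over both. In fibroblasts, AngII over Vehicle, 1 of 26 measured members was called higher, where 7.81% of all 10449 measured genes were, and 4 were called lower, where 3.95% of all genes were. In macrophages 1 of 31 was called higher against 6.99% of 9819 genes, and 7 were called lower against 6.06%. The median member stood at -0.06 relative to the median gene in fibroblasts and at -0.26 in macrophages. Below the median gene lay 17 of 26 fibroblast members and 26 of 31 macrophage members. All 4 members called lower in fibroblasts, Ifit3, Rsad2, Cmpk2 and Ifi27l2a, were among the 7 called lower in macrophages. The matching overlap over all genes was not taken, so this count does not tell how members compared with all genes.

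The AngII + VWR library stood further from AngII. In fibroblasts 0 of 25 measured members were called higher, where 4.54% of 10589 genes were, and 14 were called lower, where 6.82% of genes were. In macrophages 0 of 31 were called higher against 8.59% of 10187 genes, and 20 were called lower against 8.07%. The median member stood at -0.64 in fibroblasts and -0.84 in macrophages, and 24 of 25 and 31 of 31 members lay below the median gene. The 12 members called lower in both classes (85.7% of the fibroblast calls and 60.0% of the macrophage calls) were Gbp2, Ifi47, Ifit1, Ifit3, Ifit3b, Irf7, Isg15, Oasl2, Parp14, Rtp4, Usp18 and Xaf1. Here too the overlap over all genes was not taken, so these shares do not tell how members compared with all genes. The median of all genes itself lay at 0.10 in fibroblasts and 0.18 in macrophages in this comparison, and without its subtraction 12 and 16 members were called lower, against 4.87% and 5.04% of all genes. Among cells of at least 5000 UMIs, an alternative chosen after seeing the data, 16 and 20 members were called lower, against 7.06% and 8.10%. After 5% of each class's UMIs were taken off with the profile of the other cells, 15 and 20 were, against 6.97% and 8.43%. Both comparisons share the AngII library, so they are not independent.

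**Figure D1:**
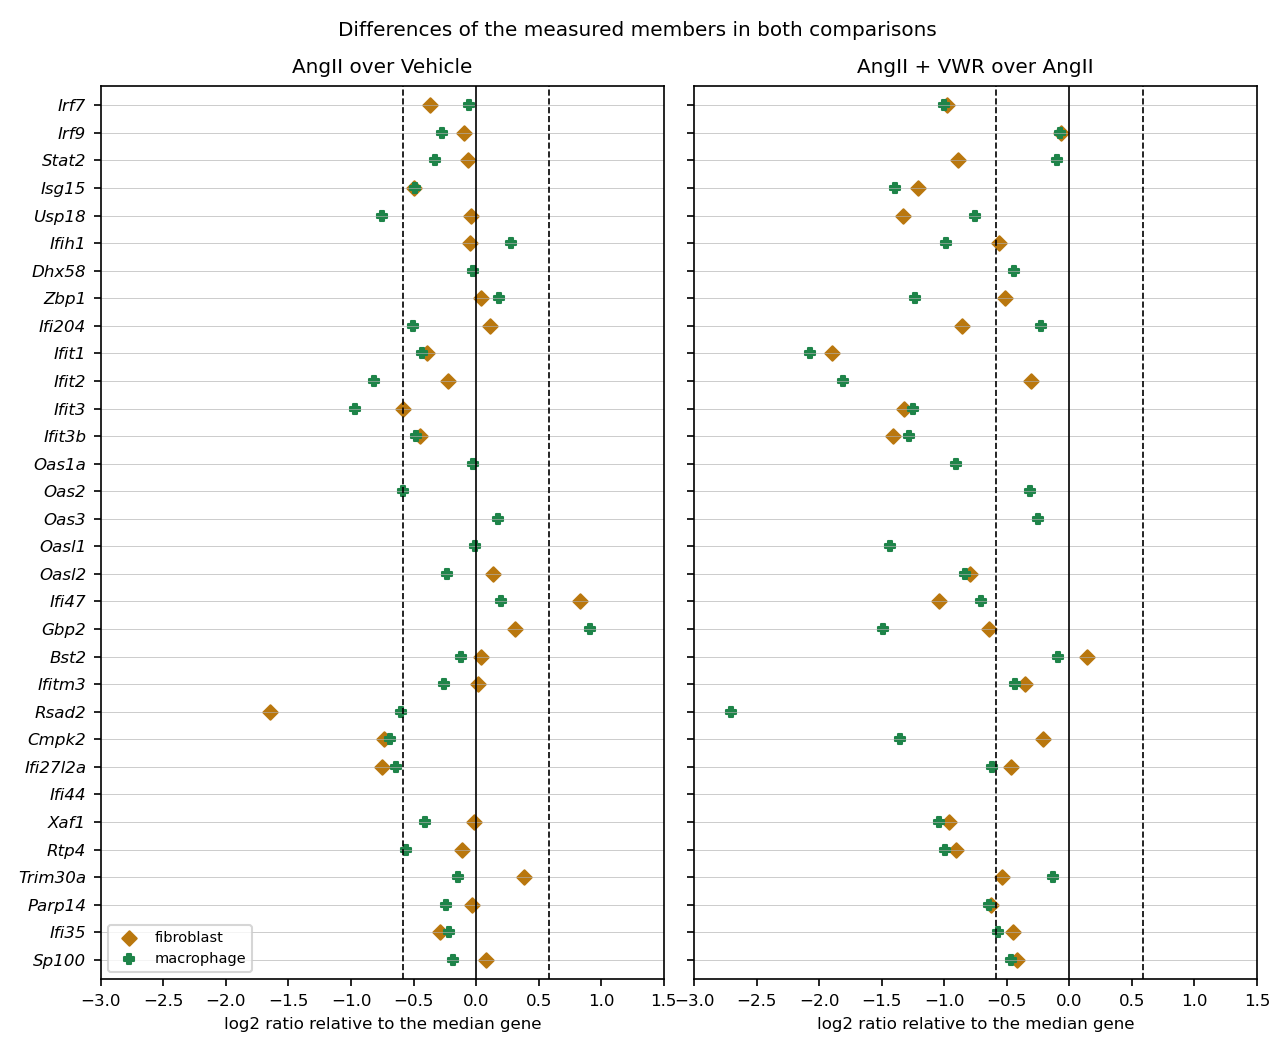
The log2 ratio of each measured member relative to the median gene (x axis) is plotted for AngII over Vehicle (left) and AngII + VWR over AngII (right), with fibroblasts as diamonds, macrophages as crosses and the 1.5-fold limits dashed. In the right panel 14 fibroblast and 20 macrophage points lie beyond the lower limit and none beyond the upper one.

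Among the transcription factors, Irf7, which amplifies interferon production, was lower in AngII + VWR, while Irf9, the DNA-binding part of ISGF3, was not called in either class or comparison. The fibroblast level of Irf7 was 20.5 CPM in Vehicle, 14.8 in AngII and 7.59 in AngII + VWR, which was 1.95-fold lower than AngII (95% interval 1.75 to 2.18). In macrophages it was 27.0, 25.8 and 14.1 CPM, 1.83-fold lower (1.59 to 2.12). Stat2, a part of ISGF3, was called in 1 class: it was 35.9, 32.5 and 18.3 CPM in fibroblasts, 1.77-fold lower in AngII + VWR than in AngII (1.65 to 1.91). In macrophages it was 32.6, 25.5 and 27.0 CPM and was not called. Irf9 held 37.0, 30.3 and 32.5 CPM in macrophages and stayed between 16.5 and 18.7 CPM in fibroblasts, and its reads overlap the gene Rnf31 on the same strand.

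Isg15, a ubiquitin-like protein joined to other proteins, and Usp18, the protease that removes it and damps the receptor, were both lower in AngII + VWR. Isg15 had almost the same levels in both classes, with 85.4, 57.2 and 26.0 CPM in fibroblasts and 80.5, 56.8 and 23.9 CPM in macrophages. AngII + VWR was 2.20-fold (2.08 to 2.34) and 2.38-fold (2.14 to 2.65) lower than AngII. Usp18 in macrophages was 22.2, 12.7 and 8.15 CPM, called lower in AngII than in Vehicle by 1.75-fold (1.55 to 1.98) and lower again by 1.56-fold (1.28 to 1.90). In fibroblasts Usp18 was 12.8, 11.7 and 4.40 CPM, and only the second comparison was called, by 2.65-fold (2.31 to 3.06).

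Of the sensors, which detect foreign RNA and DNA, 2 of 4 were called lower in macrophages of the AngII + VWR library and 1 of 3 measured in fibroblasts. Ifih1 (MDA5), a sensor of long double-stranded RNA, was 49.4, 59.8 and 33.7 CPM in macrophages, 1.77-fold lower (1.62 to 1.95) than AngII. Zbp1, a sensor that can start cell death, was 26.6, 30.1 and 13.9 CPM there, 2.16-fold lower (1.88 to 2.50). Both were highest in the AngII library, unlike most members. Ifi204, a DNA sensor of the p200 family, was 92.4, 94.7 and 55.5 CPM in fibroblasts, 1.71-fold lower (1.64 to 1.78), but 270.3, 189 and 182 CPM in macrophages, where it was not called. Ifih1 in fibroblasts, at 23.5, 21.4 and 15.3 CPM, was not called, and Dhx58, the regulator of the RNA sensors, ran from 2.74 to 12.6 CPM over both classes.

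The Ifit genes, whose products bind RNA that lacks the cap marks of the host, lie side by side on chromosome 19 and were all 4 called lower in AngII + VWR macrophages than in AngII. Ifit1 in fibroblasts was 42.6, 30.6 and 8.07 CPM, and in macrophages 36.6, 26.6 and 6.43 CPM. The AngII + VWR level was 3.79-fold (3.43 to 4.19) and 4.14-fold (3.40 to 5.09) lower than AngII. Ifit3 was 61.1, 38.3 and 15.8 CPM in fibroblasts and 46.9, 23.3 and 10.5 CPM in macrophages, so each library was lower than the one before in both classes. Its AngII level was 1.60-fold (1.52 to 1.67) and 2.01-fold (1.84 to 2.20) lower than Vehicle, and its AngII + VWR level 2.42-fold (2.25 to 2.61) and 2.22-fold (1.88 to 2.62) lower than AngII. The fibroblast call in AngII over Vehicle was made under 11 of 18 alternatives. Over these Ifit3 ran from -0.72 to 1.27 relative to the median gene. Ifit2, which shares the RNA-binding fold, separated the classes: it was 34.8, 19.2 and 5.51 CPM in macrophages but 23.3, 18.7 and 16.1 CPM in fibroblasts, where it was not called. Ifit3 and Ifit3b are 98% identical over 1697 aligned transcript bases, so the split of reads between them is uncertain, and Ifit3b followed Ifit3 at 2.12 to 13.0 CPM.

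The oligoadenylate synthetases, which make the messenger that switches on RNase L, were mostly macrophage genes. Oas2 was 46.8, 30.6 and 27.7 CPM in macrophages and 1.06 to 1.49 CPM in fibroblasts. In macrophages it was called lower in AngII than in Vehicle, by 1.53-fold (1.41 to 1.66), a value close to the limit that was no longer called under 10 of 18 alternatives. Oas1a in macrophages was 31.6, 30.8 and 18.1 CPM, 1.70-fold lower (1.495 to 1.94) in AngII + VWR than in AngII, and its reads may be shared with other Oas1 copies. Oasl2, a relative with ubiquitin-like domains, was 58.5, 49.2 and 30.7 CPM in macrophages and 20.0, 20.9 and 12.5 CPM in fibroblasts, 1.60-fold (1.45 to 1.77) and 1.67-fold (1.53 to 1.83) lower. Oasl1 in macrophages was 19.7, 19.4 and 7.52 CPM, 2.58-fold lower (2.13 to 3.14) in AngII + VWR than in AngII, and Oas3 did not exceed 5.44 CPM.

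The interferon-inducible GTPases Gbp2 and Ifi47 were the exceptions in the first comparison, being the 2 members called higher in AngII than in Vehicle. Both belong to families that interferon gamma induces strongly. Gbp2 in macrophages was 21.8, 41.5 and 16.1 CPM, 1.90-fold higher in AngII (1.74 to 2.09) and then 2.57-fold lower in AngII + VWR (2.26 to 2.94). In fibroblasts Gbp2 was 34.6, 40.9 and 27.8 CPM, not called in the first comparison and 1.47-fold lower (1.39 to 1.56) in the second. Ifi47 in fibroblasts was 5.57, 10.1 and 4.78 CPM, 1.82-fold higher in AngII (1.61 to 2.05) and 2.11-fold lower in AngII + VWR (1.84 to 2.43). In macrophages it was 30.5, 34.9 and 23.8 CPM and only the second comparison was called, by 1.46-fold (1.31 to 1.64). The gene overlaps Olfr56 on the same strand. Among macrophages with under 0.5% of UMIs from MHC class II genes, Gbp2 was not called higher in AngII (log2 ratio relative to the median gene 0.22, against 0.91 over all macrophages).

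Ifitm3 and Bst2, which act at membranes to keep viruses out or hold them back, were not called in any class or comparison. Ifitm3 was 1271, 1223 and 1025 CPM in fibroblasts and 1344, 1116 and 934 CPM in macrophages. Bst2 (tetherin) was 131, 127 and 151 CPM in fibroblasts and 241, 220.1 and 233 CPM in macrophages. Bst2 in fibroblasts was the single measured member above the median gene in AngII + VWR over AngII.

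Rsad2 (viperin), which makes a chain-ending nucleotide, had the largest called ratio of all members, and Cmpk2, its neighbour on chromosome 12 that supplies the substrate, went with it in macrophages. Rsad2 in macrophages was 79.7, 51.9 and 8.15 CPM, 1.54-fold lower in AngII than in Vehicle (1.44 to 1.64) and 6.37-fold lower in AngII + VWR than in AngII (5.36 to 7.61). Its fibroblast level was 14.6, 3.73 and 0.685 CPM, 3.92-fold lower in AngII (3.45 to 4.47), and the second ratio was not taken because neither library reached 5 CPM. In Vehicle fibroblasts 88.8% of the Rsad2 UMIs lay in 107 interferon-high cells, a range of the module score described further on. Outside the interferon-high cells fibroblast Rsad2 was 1.68 CPM in Vehicle and 1.42 CPM in AngII. Cmpk2 in macrophages was 14.7, 8.67 and 3.27 CPM, called lower in both comparisons, and in fibroblasts it was 10.0, 5.26 and 4.80 CPM, called lower in the first, by 1.90-fold (1.69 to 2.15). Members under 20 CPM in a class are named in this and the preceding paragraphs because they were called, a choice made after their values were seen.

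Of the remaining 8 members, 7 were measured, and all 7 were lower in AngII + VWR than in AngII relative to the median gene in both classes. Ifi27l2a, a small membrane protein, was 1464, 934 and 688 CPM in macrophages, with 349, 197 and 152 CPM in fibroblasts. Its AngII level was 1.57-fold (1.54 to 1.59) and 1.77-fold (1.74 to 1.81) lower than Vehicle. Each of these calls was made under 14 of 18 alternatives, and neither was made within the subsets of its class described further on. In fibroblasts with under 0.1% of UMIs from progenitor genes Ifi27l2a stood at 0.24 relative to the median gene. In macrophages it was also called lower in AngII + VWR than in AngII, by 1.36-fold (1.33 to 1.39), close to the limit. Xaf1, which promotes cell death, was 25.5, 23.9 and 12.7 CPM in fibroblasts and 36.9, 27.4 and 14.6 CPM in macrophages, 1.89-fold (1.73 to 2.06) and 1.88-fold (1.63 to 2.17) lower in AngII + VWR than in AngII. Rtp4, a receptor chaperone, was 74.2, 49.6 and 27.6 CPM in macrophages, 1.80-fold lower (1.62 to 1.99), and ran from 8.67 to 18.3 CPM in fibroblasts. Parp14, an ADP-ribosyltransferase, was 115, 96.8 and 69.7 CPM in macrophages and 29.5, 27.3 and 18.7 CPM in fibroblasts, 1.39-fold (1.30 to 1.49) and 1.46-fold (1.36 to 1.57) lower, close to the limit in both. The nuclear-body protein Sp100 (106, 92.0 and 75.1 CPM in macrophages, 34.1, 34.2 and 27.1 CPM in fibroblasts) was not called. Neither were Trim30a, at 131, 118 and 122 CPM in macrophages and 32.6, 40.7 and 29.8 CPM in fibroblasts, and Ifi35, at 43.2, 36.7 and 27.7 CPM and 44.4, 34.3 and 26.6 CPM. Ifi44 did not exceed 1.54 CPM in either class and was not measured.

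**Figure D2:**
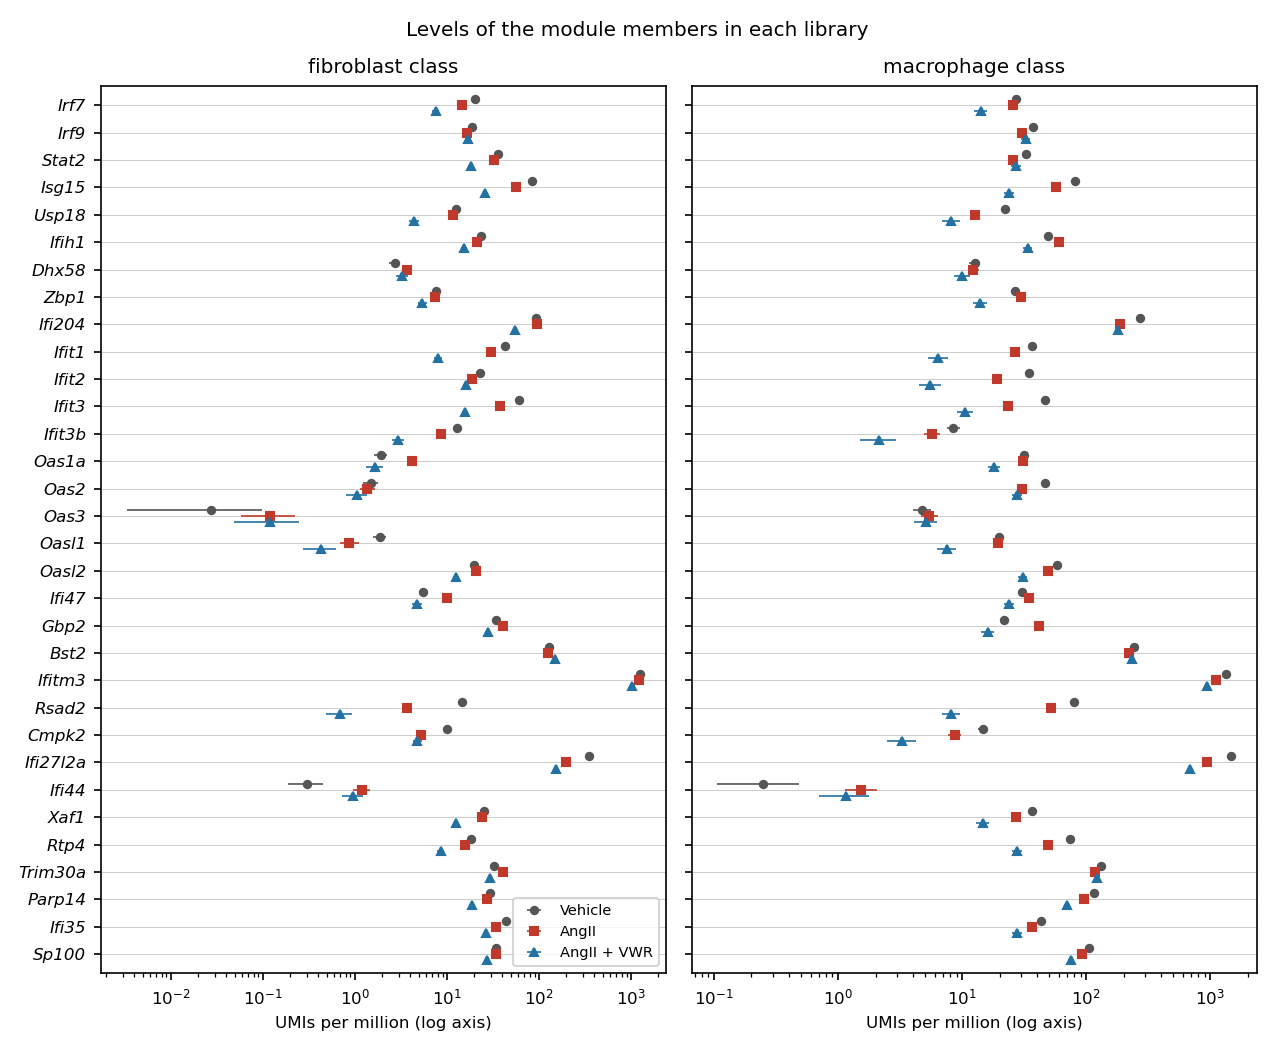
The level of each of the 32 members in CPM (x axis, log scale) is plotted for fibroblasts (left) and macrophages (right), with Vehicle as circles, AngII as squares, AngII + VWR as triangles and bars for 95% Poisson intervals. Rsad2 in macrophages runs from 79.7 down to 8.15, while the 3 values of Bst2 lie between 220.1 and 241.

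Over the libraries, 18 of 26 measured members in fibroblasts and 22 of 31 in macrophages had the order Vehicle above AngII above AngII + VWR. The members that were not lowest in AngII + VWR were Irf9 and Bst2 in fibroblasts, and Irf9, Stat2, Oas3, Bst2 and Trim30a in macrophages. Neighbouring libraries whose ratio interval held 1 included AngII and AngII + VWR for Irf9 in both classes and for Stat2 in macrophages.

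Macrophages held more of the module than fibroblasts in each library. Of 28 members measured in all 3 libraries, 17 (60.7%) were at least 1.5-fold higher in macrophages in every library and 0 were lower by that much in every library. Over all 10723 genes so measured, 21.7% were higher and 26.6% lower. The largest gaps were those of Oas3, at 42.6-fold to 174-fold on few UMIs, Oas2, at 22.3-fold to 31.4-fold, Oasl1, at 10.6-fold to 22.2-fold, Oas1a, at 7.38-fold to 16.5-fold, and Rsad2, at 5.45-fold to 13.9-fold. It was 4.20-fold to 4.75-fold for Ifi27l2a. Isg15, Ifi35 and Ifitm3 had nearly equal levels, with ratios of macrophages over fibroblasts from 0.911 to 1.07, and Ifit1 and Ifit3 were a little lower in macrophages, at 0.608 to 0.871.

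Lymphoid cells were few (247, 124 and 159) and endothelial cells fewer in 2 libraries (56, 166 and 81). In lymphoid cells the 6 members with the highest mean level were Sp100 (267, 273 and 166 CPM), Ifi27l2a, Ifitm3, Bst2, Trim30a and Ifi35, and the module summed to 1012, 1187 and 860.3 CPM. Lymphoid Ifitm3 was 38.0, 34 and 162 CPM, and the fibroblast markers in that class were highest in the same library (756, 415 and 2108 CPM), a part that was not tested. In endothelial cells the module summed to 3903, 3910.4 and 3017 CPM, and Ifitm3 led at 2374, 1943 and 1600 CPM. Next came Bst2, Ifi27l2a, Isg15, Rsad2 and Ifi35. Endothelial Isg15 (67.0, 146 and 51.8 CPM) and Rsad2 (25.4, 149 and 49.8 CPM) were highest in the AngII library, in contrast to fibroblasts and macrophages. These endothelial values rest on 56, 166 and 81 cells.

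The module was uneven among cells of the same class. To remove depth, each cell with at least 2000 UMIs was thinned to 2000, and cells with at least 8 members detected are called interferon-high here, a range of a score and not a cell type. The median was 3 members per macrophage and 2 per fibroblast in every library. Interferon-high cells were 164 of 2359 macrophages in Vehicle, 6.95% (95% exact binomial interval 5.96 to 8.05), 113 of 1964 in AngII, 5.75% (4.76 to 6.88), and 102 of 2763 in AngII + VWR, 3.69% (3.02 to 4.46). The macrophage shares of Vehicle and AngII overlapped within counting error, and that of AngII + VWR lay below both. In fibroblasts the shares were 1.93% (1.58 to 2.32), 1.66% (1.34 to 2.03) and 0.593% (0.443 to 0.777), in the same pattern. Of these cells 16 to 43 per library and class stood exactly at 8 members, and 35 to 75 stood 1 below it. Cells left out as too shallow were 175, 33 and 455 macrophages and 985, 474 and 2139 fibroblasts. Without thinning the macrophage shares were 58.5%, 63.6% and 18.1%, and the order of Vehicle and AngII turned.

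**Figure D3:**
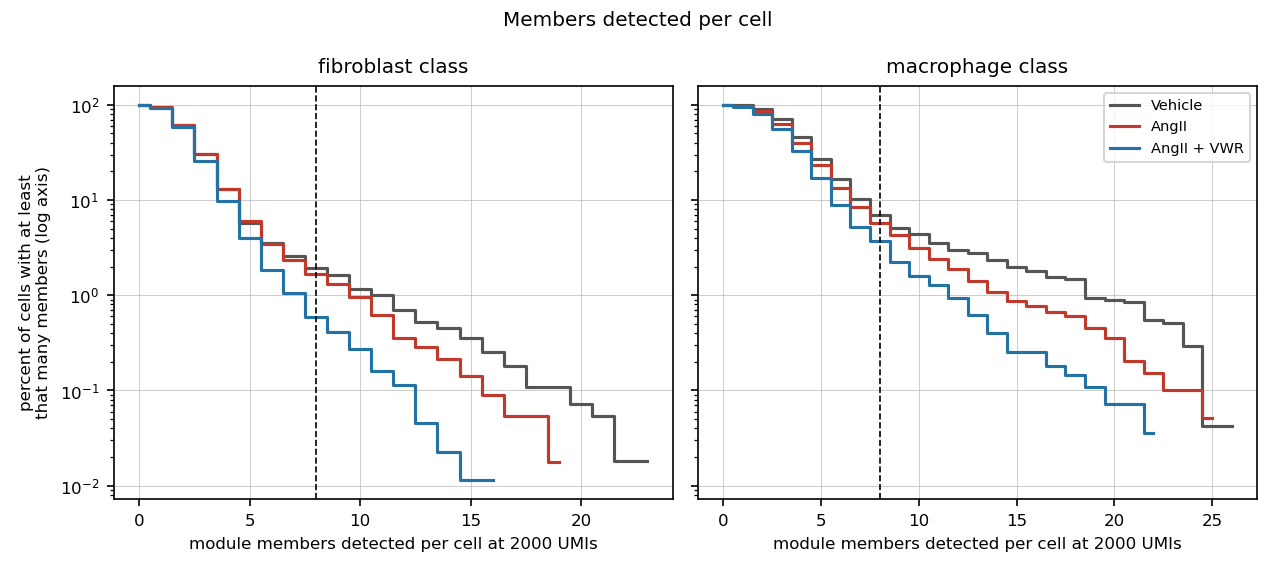
The percent of cells (y axis, log scale) with at least the number of members on the x axis is drawn per library for fibroblasts (left) and macrophages (right), after thinning to 2000 UMIs, with a dashed line at 8. The AngII + VWR curve lies lowest from there on, with 3.69% of macrophages and 0.593% of fibroblasts at 8 or more, and single cells reached 26 members in Vehicle macrophages.

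Some members were held by a few cells and others were spread over the class. For each member, cells with at least 8 of the other members detected were counted, so that the member itself did not choose them. These were 5.85% to 7.29% of macrophages in Vehicle, 3.97% to 5.40% in AngII and 1.95% to 3.15% in AngII + VWR, depending on the member. They held 97.0%, 87.6% and 73.4% of all macrophage UMIs of Ifit2, and 88.9%, 81.2% and 56.0% of those of Ifit3. For Rsad2 the shares were 87.1%, 78.8% and 58.2%, and for Isg15 76.8%, 62.7% and 33.8%. The same cells held only 12.7%, 9.27% and 5.06% of the Ifitm3 UMIs and 11.8%, 7.46% and 4.76% of the Ifi27l2a UMIs, where they held 1.74% to 7.78% of the UMIs of all genes. In fibroblasts they held 76.9%, 45.2% and 20.3% of Ifit3 but 17.6%, 8.42% and 1.34% of Ifit2. Ifit2 was thus concentrated in macrophages and spread in fibroblasts, where its level also differed least among the Ifit genes.

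**Figure D4:**
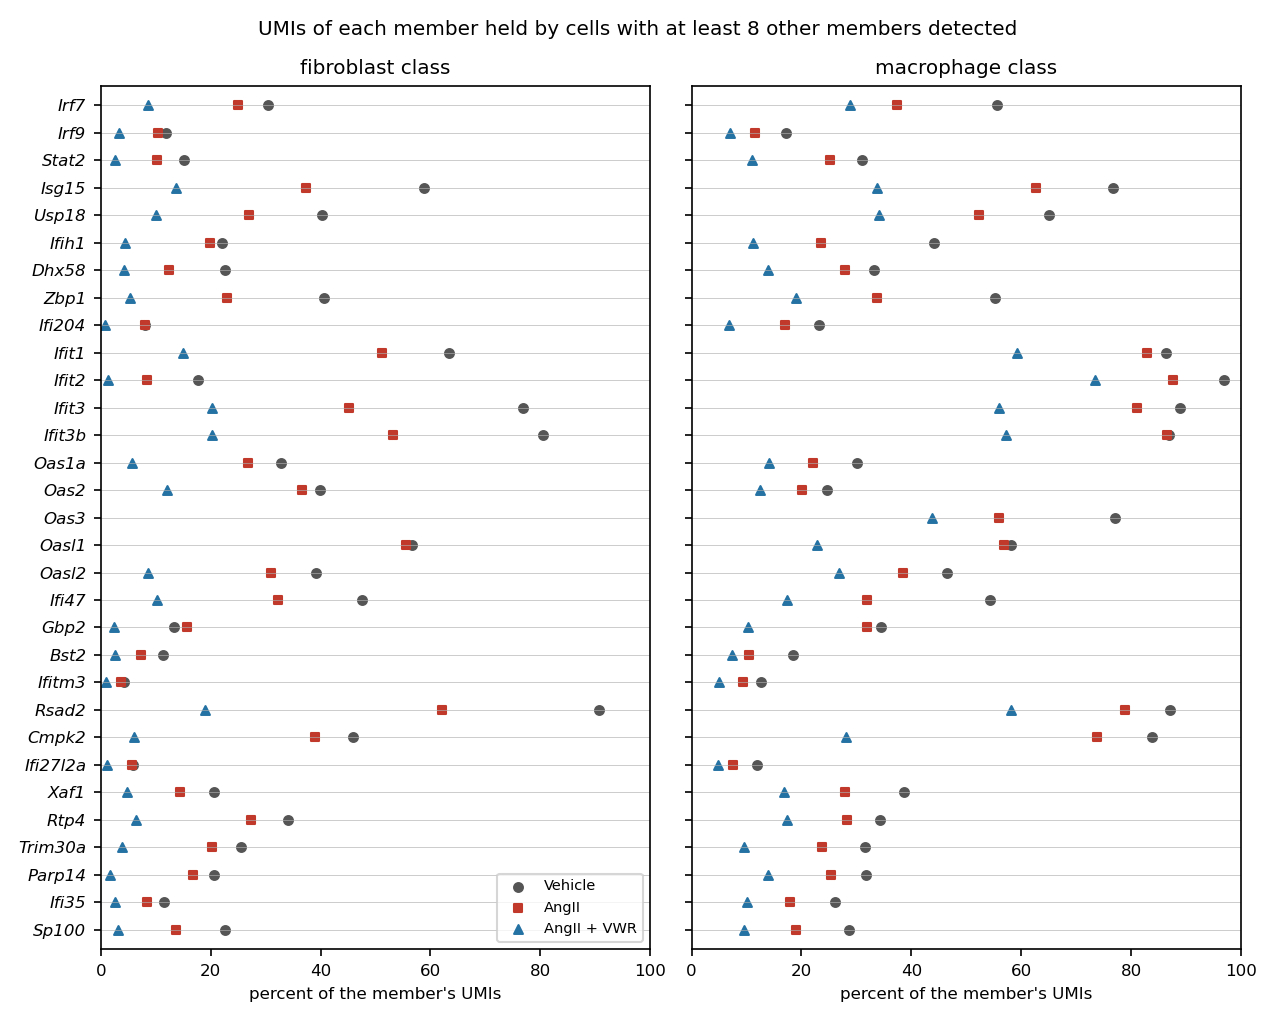
The percent of each member's UMIs (x axis) held by cells with at least 8 other members detected is plotted for fibroblasts (left) and macrophages (right), 1 marker per library, for members with at least 30 UMIs in every library of the macrophage class. In macrophages Ifit1, Ifit2, Ifit3 and Rsad2 reach 56.0% to 97.0%, while Ifitm3 and Ifi27l2a stay at 4.76% to 12.7%.

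Counts of called members changed in both comparisons when the interferon-high cells, which the module's own score picks, were left out. Without them, AngII over Vehicle had 4 of 27 measured macrophage members called higher, against 7.12% of all genes, and 1 lower, against 6.13%, in place of 1 and 7 of 31. Those higher were Gbp2 (0.86 relative to the median gene), Ifi47 (0.72), Ifih1 (0.69) and Zbp1 (0.63), and Rsad2 moved from -0.60 to 0.07. In fibroblasts Ifit3 moved from -0.59 to 0.69 and Ifi27l2a stayed lower at -0.75. In AngII + VWR over AngII, 12 of 25 macrophage members were called lower, against 7.96% of genes, and 0 higher, against 8.51%. In fibroblasts 9 of 23 were called lower, against 6.70%, and 0 higher, against 4.55%. Members called lower in both classes included Isg15 (-0.70 in fibroblasts, -0.82 in macrophages) and Irf7 (-0.74 and -0.90).

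Interferon-high cells also held more of the pathway genes that the score did not use. Of 83 such genes measured in macrophages of all 3 libraries, 48 (57.8%) were at least 1.5-fold higher in interferon-high cells than in the other macrophages in every library, against 1.99% of 9196 genes outside the module. In fibroblasts 45 of 71 (63.4%) were, against 1.43% of 9901 genes. Among them were the sensor Ddx58 (RIG-I), with 211, 172 and 122 CPM in interferon-high macrophages against 28.7, 26.5 and 21.8 CPM in the rest, and Eif2ak2 (PKR). Genes more typical of interferon gamma, a list described further on, were also among them. Of these, 10 of 13 measured in macrophages and 11 of 11 in fibroblasts were higher by that much in all libraries. The receptors were not: 0 of 5 in either class were higher by that much in all libraries. Ifnar1 was 73.8, 111 and 76.3 CPM in interferon-high macrophages and 78.6, 110.5 and 78.7 CPM in the rest.

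Hardly any type I interferon RNA was seen. Over all kept cells Ifnb1 had 0, 1 and 0 UMIs, Ifnab 0, 0 and 1, and Ifna1, Ifna2, Ifna4, Ifna5, Ifne, Ifnl2 and Ifnl3 had 0 in each library. A count of 0 allows up to 3 UMIs per library. Ifnk had 6, 5 and 12 UMIs and Ifnz 1, 2 and 6. The receptor genes Ifnar1 and Ifnar2 were present in both classes, at 78.0, 110.4 and 79.1 CPM and 169.8, 226 and 206 CPM in macrophages. Ifnar1 was called lower in AngII + VWR macrophages than in AngII, by 1.40-fold (1.31 to 1.49), and neither gene was called in fibroblasts, where Ifnar1 was 27.8, 29.6 and 29.7 CPM and Ifnar2 181, 183 and 162 CPM.

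Over the libraries, genes more typical of interferon gamma had another pattern from the module. They were higher in the AngII library than in Vehicle, and then lower in AngII + VWR. Of 12 measured in fibroblasts 7 were called higher in AngII, against 7.81% of all genes, and 0 lower, with a median of 0.61 relative to the median gene. Of 14 in macrophages 8 were called higher, against 6.99%, and 0 lower, with a median of 0.76. In AngII + VWR over AngII 10 of 12 and 12 of 14 were called lower, against 6.82% and 8.07% of all genes, with medians of -1.12 and -1.45. This list was written with the earlier results of these data known and gives no independent support.

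Some genes of that list differed by more than any module member. Cxcl9, a T cell attractant, was 1.03, 27.2 and 0.428 CPM in fibroblasts and 1.04, 41.5 and 1.66 CPM in macrophages, so the AngII library stood far above the others. Its AngII level was 26.5-fold (21.0 to 33.8) and 39.7-fold (28.3 to 57.6) above Vehicle. Cxcl10, its relative, was 27.4, 79.8 and 4.78 CPM in fibroblasts and 71.6, 190.1 and 28.1 CPM in macrophages. The GTPases Gbp5 (10.7, 69.1 and 1.76 CPM in fibroblasts) and Iigp1 (30.7, 57.2 and 10.4 CPM in macrophages) had the same order, with AngII highest. Ciita, the switch of MHC class II genes, was 17.4, 55.8 and 19.9 CPM in macrophages, and the class II genes themselves summed to 8912, 27145 and 10448 CPM there.

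Among the regulators of the pathway, Irf1 and Jak2 were highest in the AngII library in both classes, and others were not, such as the inhibitor Socs1 in macrophages (6.87, 6.88 and 13.3 CPM). Irf1, a transcription factor that interferon gamma and cytokines induce, was 211, 349 and 83.5 CPM in fibroblasts, 1.65-fold higher in AngII (1.62 to 1.68) and 4.18-fold lower in AngII + VWR (4.05 to 4.31). In macrophages it was 149, 185 and 127 CPM and only the second comparison was called. Jak2, a kinase of the gamma receptor and of many cytokine receptors, was 28.2, 66.3 and 46.4 CPM in macrophages and 42.0, 75.6 and 40.0 CPM in fibroblasts, called in both comparisons in each. Socs3, an inhibitor that cytokines of the interleukin 6 family induce, was 726 CPM in AngII fibroblasts and 125 CPM in AngII + VWR, 5.82-fold lower (5.68 to 5.96), and Ptpn2, a tyrosine phosphatase, was 49.5, 142 and 43.9 CPM there.

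In fibroblasts Ifi205 and Ifi211, of the p200 family, were 3.38-fold (3.17 to 3.60) and 2.61-fold (2.47 to 2.76) lower in AngII + VWR than in AngII. In macrophages Ikbke, a kinase of the sensing pathway, was 3.08-fold higher in AngII than in Vehicle (2.72 to 3.49), and Ly6a was 3.22-fold higher (3.02 to 3.44). Of the 39 interferon-induced genes outside both lists, 29 were measured in fibroblasts and 36 in macrophages in the first comparison. In fibroblasts 3 were called higher, against 7.81% of all genes, and 1 lower, against 3.95%. In macrophages 3 were called higher, against 6.99%, and 1 lower, against 6.06%. In the second comparison 8 of 30 in fibroblasts were called lower, against 6.82%, and 0 higher, against 4.54%. In macrophages 16 of 36 were called lower, against 8.07%, and 1 higher, against 8.59%. Their medians in the second comparison were -0.34 and -0.57, beside -0.64 and -0.84 for the module.

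Interferon gamma RNA itself followed the AngII library. Over all kept cells Ifng had 6, 124 and 20 UMIs, and most of the AngII UMIs lay in the lymphoid class. The natural killer markers of that class summed to 47.8, 1291 and 453 CPM and the B cell markers to 645, 54.0 and 152 CPM, so the makeup of the class differed between libraries, and its part in the result was not tested.

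**Figure D5:**
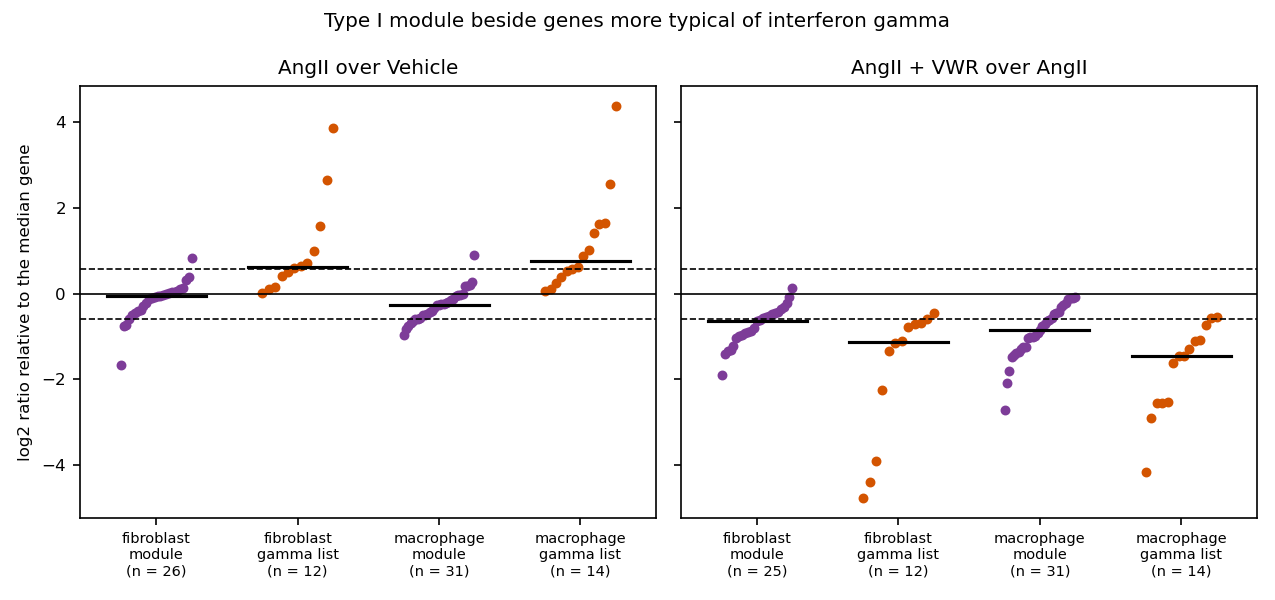
The log2 ratio relative to the median gene (y axis) is plotted for each measured module member and each gene of the interferon gamma list, per class and comparison, with bars at the medians and dashed lines at 1.5-fold. In AngII over Vehicle the medians are -0.06 and 0.61 in fibroblasts and -0.26 and 0.76 in macrophages, and in AngII + VWR over AngII all 4 medians lie below 0.

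The result for the first comparison in fibroblasts depended on which fibroblasts were taken. Cells with at least 0.1% of UMIs from progenitor genes were 78.4% of fibroblasts in Vehicle and 51.1% and 47.0% in the other libraries. Among those under 0.1%, AngII over Vehicle had 9 of 25 measured members called higher, against 8.45% of all genes in these cells, and 0 lower, against 4.93%, in place of 1 and 4 of 26: Ifit3 stood at 1.27, Oasl2 at 1.12, Trim30a at 1.08, Ifit1 at 0.78 and Isg15 at 0.70 relative to the median gene. Their module sum was 1999 CPM in Vehicle and 2020.1 in AngII, against 2553 and 2315 in the other fibroblasts. The ratio of AngII over Vehicle was thus 1.01 in the cells under 0.1%, against 0.88 over all fibroblasts, and no interval was taken for it. Interferon-high cells were 0.637% and 1.57% of these cells in Vehicle and AngII, and 2.24% and 1.75% of those at or above 0.1%. In AngII + VWR the shares were 0.626% and 0.556%. Under 0.1% the AngII + VWR share (0.420 to 0.898) and the Vehicle share (0.256 to 1.31) overlapped within counting error, and the AngII share (1.14 to 2.11) lay above the AngII + VWR share. Macrophages split at 0.5% of UMIs from MHC class II genes kept the order of the module sum, at 4771, 3530.1 and 2785 CPM below the limit and 4144, 3453 and 2567 CPM above it.

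The list of 18 genes that tissue digestion induces also differed between libraries. In macrophages 13 of 18 were called lower in AngII than in Vehicle, against 6.06% of all genes, with a median of -0.81. There 2 of 18 were lower in AngII + VWR than in AngII, against 8.07%, with a median of -0.04. In fibroblasts 1 of 18 was called higher in the first comparison, against 7.81% of all genes, and 1 lower, against 3.95%. In the second comparison 7 were lower there, against 6.82% of genes, with a median of -0.41. Monocyte markers in macrophages summed to 21.6, 182 and 127 CPM. The part of these in the module's differences was not tested.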

How the data were processed

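UMI counts per gene and barcode were deposited by the authors as 3 filtered 10x matrices, made with Cell Ranger 7.0.1 or 7.1.0 per the file headers and build mm10 per the submitters' processing notes. Whether intron reads were counted is not given in the sources used here. Library totals were 165977330, 141570158 and 105679209 UMIs. Barcodes passed with 300 or more genes, 500 or more UMIs and a mitochondrial share of 10% or less, and the highest Scrublet scores (scanpy 1.11.5) were removed at 0.8% per 1000 cells: 1537, 784 and 2894. Scrublet's own calls were 282, 160 and 826. Class thresholds were 1% of UMIs for fibroblast, 0.3% for macrophage, 0.2% for lymphoid and 0.3% for endothelial genes, and cells over more than 1 were left out. Intervals are 95% exact Poisson, conditional (ratios) or Clopper-Pearson (shares), and they treat UMIs as independent. Ratios used a pseudocount of 1 CPM and were taken in classes with at least 100 cells per library. The functions were tested on simulated data. The members and all lists were chosen with earlier results of these data known. Named were members reaching 20 CPM in a class, with ratios where called, the 6 highest in lymphoid and endothelial cells, and up to 6 pathway genes per comparison. Alternatives varied filters, thresholds, scaling, pseudocount, doublets, free RNA and strata. Promoters came from RefSeq. The result for 1 pathway gene is not reported here.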

Additional observations from a re-analysis of the deposited data

Results flagged for a closer look

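A share of interferon-high cells stood out among the cells that no class rule took and that no comparison used. In the AngII library 4.76% of 546 unclassified cells of at least 2000 UMIs were interferon-high (95% exact binomial interval 3.13 to 6.90), against 1.51% of 2058 in Vehicle (1.03 to 2.13) and 0.885% of 1017 in AngII + VWR (0.405 to 1.67). The module summed to 1214, 2167 and 1676 CPM over all unclassified cells, which numbered 2874, 732 and 1675. The macrophage markers in them summed to 1294, 3570 and 2924 CPM, and their part in the share was not tested.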

How the results depend on the processing

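No paired analysis was possible because each group is 1 library and the labels give no replicate numbers; for the same reason no library could be left out. With a call at 2-fold, fibroblast members called in AngII over Vehicle were 0 higher and 1 lower, and macrophage members 0 and 0, while in AngII + VWR over AngII 6 and 12 were lower, and 3 fibroblast genes of the interferon gamma list were higher in AngII. Measured at 20 CPM, the fibroblast counts were 0 higher and 1 lower, then 9 lower. Without a filter on low counts 3 fibroblast and 2 macrophage members were higher in AngII. A pseudocount of 5 gave 0 higher and 2 lower in fibroblasts and 4 lower in macrophages in the first comparison. Macrophage members lower in AngII were 4 without doublet removal and 3 with the mean of each cell's CPM, which gave 4 fibroblast genes of the gamma list higher. Doubled class thresholds gave 2 fibroblast members higher in AngII. Without interferon-high cells the first comparison had 2 higher and 1 lower in fibroblasts and 4 higher and 1 lower in macrophages, the second 9 and 12 lower, and AngII over Vehicle turned for Ifit3 in fibroblasts (0.69) and Rsad2 in macrophages (0.074). In fibroblasts under 0.1% progenitor genes it had 9 higher and 0 lower, and turned for Ifit3 (1.27) and Ifi27l2a (0.24). In macrophages under 0.5% class II genes it had 0 higher and 11 lower, with 2 gamma genes higher, and at or above 0.5% it had 2 lower. Shares of all genes called were taken for only some of these settings and are given above where taken. The other counts stand without such a share and do not tell how members compared with all genes. The cause of these changes was not tested.

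Interferon-high shares in macrophages, in the order Vehicle, AngII and AngII + VWR, were 16.6%, 13.3% and 8.83% at 6 members, 4.41%, 3.16% and 1.59% at 10, 3.05%, 2.32% and 0.679% after thinning to 1000 UMIs, 58.5%, 63.6% and 18.1% without thinning, and 3.98%, 2.70% and 1.27% without Ifitm3, Bst2, Gbp2 and Ifi27l2a. In fibroblasts, where these alternatives were chosen after seeing the data, they were 3.56%, 3.43% and 1.86%, then 1.17%, 0.964% and 0.274%, then 0.882%, 0.588% and 0.128%, then 21.6%, 26.4% and 4.37%, and last 1.17%, 0.874% and 0.205%. Doubled class thresholds gave 1.45% in Vehicle and 1.25% in AngII fibroblasts. AngII + VWR was lowest under each of these 5 score settings. The setting without thinning does not remove depth, and AngII + VWR was the shallowest library, so its place there cannot be told apart from depth. Of 36 calls of members that reached 20 CPM in the class, 21 were made under every alternative other than the 2-fold call. These were 0 of 2 and 7 of 10 in fibroblasts and 1 of 7 and 13 of 17 in macrophages, first and second comparison. Called members under 20 CPM in the class, such as Rsad2 and Cmpk2 in fibroblasts, were not followed singly under the alternatives. Depth limits members under 5 CPM, for which no ratio was taken.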
